A study of Homo sapiens with 6 samples.

Results

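The genes described here build and steer the carriers that move proteins between the endoplasmic reticulum (ER) and the Golgi apparatus. They are 39 genes chosen by name, out of 11963 genes with a probe set in the annotation used, and they were read from U87 glioblastoma cells, an established human brain tumour line. The IRE1dn cells carried a dominant negative transgene of IRE1alpha and are labelled as the clone U87 IRE1.NCK DN. The ctrl cells carried the empty plasmid, and their label gives clones in the plural. There were 3 Affymetrix arrays per group, all from total RNA of cells kept 16 h in medium with 10% serum. No source used here names the promoter that drives the transgene, and no array is assigned to one of the ctrl clones, so an effect of the transgene and of a single IRE1dn clone cannot be told apart. The labels do not say that replicates were separate cultures. The p-values below therefore weigh the group difference only against the spread among these samples, and that spread may be technical.

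COPII coats form on the ER. The GTPase SAR1 recruits the inner pair SEC23 and SEC24, of which SEC24 binds cargo, and then the outer cage of SEC13 and SEC31. COPI coats form on the Golgi under ARF GTPases and return escaped ER proteins and receptors to the ER. Cargo receptors (KDEL receptors, the lectins LMAN1 and LMAN2, the p24 proteins of the TMED family) link cargo to these coats, tethers hold the arriving vesicle, and SNAREs fuse it. IRE1alpha is an ER membrane sensor of unfolded proteins whose RNase splices the XBP1 transcript, and the spliced XBP1 factor is known to raise many genes of the secretory pathway.

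Of the 39 genes, 35 had a probe set with a single gene symbol, and all 35 lay above the filter level, a scaled signal of 13.0. Every group mean was at least 30.8 units. ARF1 is listed only on 2 probe sets that also name a microRNA gene, and COPG2, KDELR2 and USO1 have no probe set named in this annotation, so these 4 were not analysed here. The list divides into 9 COPII coat genes, 8 COPI coat genes, 8 cargo receptors, 5 ARF GTPases with their activating protein, 3 Golgi tethers and 6 SNAREs.

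The promoters of these genes can be set beside what they did on the arrays. RefSeq promoter windows (GRCh38.p14, 250 bases before to 50 after a start) were held for 34 of the 39 genes; ARF4, KDELR2, SEC24D, TMED9 and USO1 had none in the table. The unfolded protein response element (UPRE), searched as TGACGTGG on both strands, is a sequence known to bind XBP1. It was found for 8 of the 34 genes (23.5%), against 0.729% of all 35116 windows and 1.34% of the 6030 tested genes with a window. The stretches are shown because they carry this site, which is in capitals (CCACGTCA where the site lies on the opposite strand), with 20 bases on either side:
ARF1, chr1:228082672-228082719, plus strand: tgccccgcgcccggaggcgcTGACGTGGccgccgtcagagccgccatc
COPA, chr1:160343218-160343265, minus strand: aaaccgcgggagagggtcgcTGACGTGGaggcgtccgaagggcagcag
COPB1, chr11:14499832-14499879, minus strand: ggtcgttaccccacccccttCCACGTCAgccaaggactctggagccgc
COPB2, chr3:139389816-139389863, minus strand: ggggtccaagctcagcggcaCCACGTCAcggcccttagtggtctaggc
COPB2, chr3:139389623-139389670, minus strand: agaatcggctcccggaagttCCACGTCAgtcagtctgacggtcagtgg
KDELR3, chr22:38468030-38468077, plus strand: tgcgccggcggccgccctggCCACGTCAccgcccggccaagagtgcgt
SEC23A, chr14:39103212-39103259, minus strand: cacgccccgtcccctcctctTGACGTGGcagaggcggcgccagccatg
SEC24A, chr5:134648586-134648633, plus strand: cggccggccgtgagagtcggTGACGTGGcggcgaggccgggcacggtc
STX5, chr11:62832040-62832087, minus strand: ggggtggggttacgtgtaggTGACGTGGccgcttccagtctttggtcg

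The COPB2 sites lie 196 and 3 bases before 1 of its 2 listed starts, while from the other start they lie 163 bases before it and at base 31 of the transcript. Of the remaining sites, the SEC24A site 179, the COPB1 site 48, the KDELR3 site 46, the ARF1 and STX5 sites 16 and the SEC23A site 4 bases before it, while the COPA site begins at base 6 of the transcript. A match is a description of letters and not evidence of binding. Among the 7 of these 8 genes that were measured, 1 fell (COPB1) and 0 rose in limma, at an adjusted p threshold of 0.05, where 16.5% of all genes fell and 17.9% rose. Among the 81 tested genes of the whole array with this site, 11 rose (13.6%) and 17 fell (21.0%), at a median change of -0.04 on the log2 scale.

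Of the other 7 motifs searched, the ER stress response element (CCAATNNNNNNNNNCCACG) and its second form (ATTGGNCCACG) were in 0 of the 34 genes, against 0.199% of tested genes for each, and the cyclic AMP response element TGACGTCA was also in 0, against 4.16% of tested genes. At a share of 0.199%, 0 of 34 was the likely outcome, so the absence of the first 2 motifs says little about these genes. The core CCACGT, which the UPRE contains on its opposite strand, was found for 17 of the 34 genes, against 16.7% of tested genes (9.72% of windows). Its longer form GCCACGT was found for 38.2% of the 34, against 6.05% of tested genes (3.22% of windows). The shorter CCACG, which both of these contain, was found for 85.3% of the 34, against 58.1% of tested genes (38.1% of windows). The CCAAT box was found for 38.2% of the 34, below the 45.4% of tested genes (34.6% of windows). In limma, of the 16 measured genes with CCACGT 1 rose and 2 fell, and of the 12 with GCCACGT 0 rose and 0 fell. Of the 27 with CCACG 1 rose and 5 fell, and of the 13 with a CCAAT box 0 rose and 5 fell. Over all genes tested 17.9% rose and 16.5% fell, and differences between these shares were not tested.

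Most trafficking genes did not pass the test, and all but 1 of those that did were lower in IRE1dn cells. Of the 35, 8 passed limma's adjusted p of 0.05 (22.9%), against 34.4% of the 7178 genes tested. 1 rose (2.86%, against 17.9% of all genes) and 7 fell (20%, against 16.5%). Their median log2 change was -0.20, against 0.01 over all genes. A lower value in IRE1dn cells was seen for 24 of the 35 (68.6%, against 49.2% of all genes). Without ctrl array 2 the median of the 35 was -0.10, and without IRE1dn array 3 the number that fell was 4. These shares are descriptions, and no test compared the list with other genes. At unadjusted p under 0.05, 2 rose and 11 fell, against 1720 and 1584 of the 7178 genes tested. Changes of at least 2-fold past the threshold were seen in 3 of the 35 (8.57%), against 15.8% of all genes. The 3 arrays of one group lay apart from those of the other for 17 of the 35 (48.6%), against 50.2% of all genes.

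**Figure D1:**
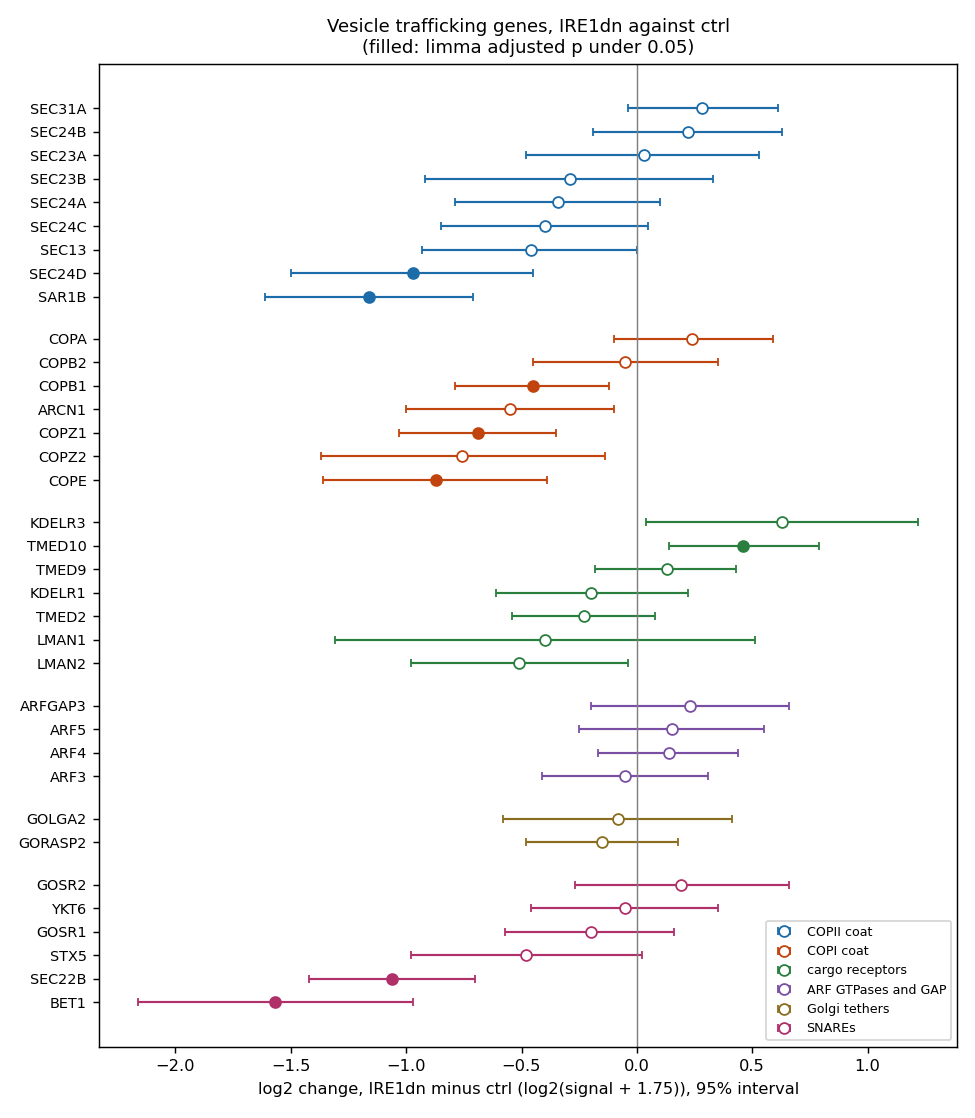
Log2 change of each measured gene (IRE1dn minus ctrl, x axis, on log2(signal + 1.75)) with its 95% interval, 3 arrays per group, by role; filled points passed limma's adjusted p of 0.05. BET1 lies farthest to the left at -1.57, TMED10 is the only filled point to the right of 0, and the ARF and tether groups lie between -0.15 and 0.23.

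The arrays' median signals were 18.4 to 21.0 units, the 2% trimmed mean was 100 on each, and correlations of log2 signals over the tested genes were 0.976 to 0.984 within IRE1dn, 0.939 to 0.954 within ctrl and 0.841 to 0.886 between groups. The median SD of a trafficking gene was 0.158 among IRE1dn arrays and 0.211 among ctrl arrays on the log2 scale. IRE1dn array 3 had a 3′ to 5′ ACTB signal ratio of 1.64, an RNA quality measure that lay between 1.09 and 1.21 on the other 5 arrays. The same ratio for GAPDH showed no comparable rise, at 0.940 on that array and 0.869 to 0.923 on the others. Of 8 glial and neural progenitor markers, NES, VIM, CD44 and CHI3L1 passed the filter and GFAP, S100B, OLIG2 and SOX2 did not. CHI3L1 was higher in IRE1dn (means of 1636 units in IRE1dn and 597 in ctrl, log2 change 1.63, SE 0.38, limma adjusted p = 0.0099), and NES, VIM and CD44 did not pass the threshold. In a limma fit without the filter, OLIG2 was lower in IRE1dn (means of 3.42 units in IRE1dn and 16.4 in ctrl, log2 change -1.74, adjusted p = 0.019). GFAP, S100B and SOX2 did not pass in that fit. All 6 markers of other cell types were below the filter level in both groups, namely PTPRC, CD14, PECAM1, CDH5, EPCAM and KRT18 for blood, endothelial and epithelial cells. Of these, EPCAM was lower in IRE1dn in the limma fit without the filter (means of 2.57 units in IRE1dn and 9.74 in ctrl, log2 change -1.40, adjusted p = 0.021). The others did not pass in that fit. ERN1, the gene of IRE1alpha, was also below the filter level and does not check the labels (11.1 ± 1.58 units in IRE1dn and 12.3 ± 1.53 in ctrl, SD, n = 3 each; log2 change -0.13 in a limma fit without the filter).

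Among the 9 COPII coat genes, SAR1B and SEC24D fell and 0 rose in limma (22.2% called, against 34.4% of all genes), with a median log2 change of -0.34. At unadjusted p under 0.05, 3 fell and 0 rose, against 1584 and 1720 of the 7178 genes tested. SAR1B, one of the GTPase forms that start coat assembly, had 200, 180 and 177 units in IRE1dn cells, against 549, 389 and 340 in ctrl cells. All IRE1dn arrays lay below all ctrl arrays, and ctrl array 1 stood highest. The log2 change was -1.16 (SE 0.20; limma adjusted p = 0.0026), so ctrl was 2.24-fold higher. In a culture measured in bulk, fewer cells with the transcript and less transcript per cell cannot be told apart.

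SEC24D, 1 of 4 SEC24 cargo adaptors, had 130, 95.2 and 68.7 units in IRE1dn cells, against 201, 188 and 175 in ctrl cells. The groups did not overlap, and IRE1dn array 3 was the lowest. The log2 change was -0.97 (SE 0.24; limma adjusted p = 0.012). Without IRE1dn array 3, the one with the raised ACTB but not GAPDH ratio, it was -0.75 and no longer passed (adjusted p = 0.052); the part of RNA quality in the result was not tested. The gene's other 2 probe sets had means of 0.851 to 3.14 units, far below the filter level, and averaging all 3 gave a log2 change of 0.02.

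The other SEC24 forms did not pass. SEC24A and SEC24C had lower values (-0.34 and -0.40; 95% intervals -0.79 to 0.10 and -0.85 to 0.05), and SEC24B a higher one (0.22; -0.19 to 0.63). Whether SEC24D changed differently from its relatives was not tested. The partner SEC23A had 614, 533 and 461 units in IRE1dn cells, against 669, 574 and 371 in ctrl cells, a full overlap with a log2 change of 0.03 (95% interval -0.48 to 0.53). SEC23B changed by -0.29 in value with probe sets on both sides of 0. In the outer cage SEC13 and SEC31A pointed in different directions in value (-0.46 and 0.28), and neither passed (limma adjusted p of 0.11 and 0.16). Both probe sets of SEC31A were higher in value, and its IRE1dn arrays (850, 1026 and 919 units) lay above the ctrl arrays (735, 718 and 838).

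The COPI coat had the lowest median of the 6 groups, -0.55. Of its 7 measured genes, 3 fell and 0 rose in limma (42.9% called, against 34.4% of all genes). With unadjusted p under 0.05, 5 fell and 0 rose, against 1584 and 1720 of the 7178 genes tested. COPE, the epsilon subunit, had 428, 283 and 236 units in IRE1dn cells, against 571, 574 and 543 in ctrl cells. The ctrl arrays lay close together while the IRE1dn arrays spread widely, all below ctrl and array 3 the lowest. The log2 change was -0.87 (SE 0.22; limma adjusted p = 0.012). The call ended without IRE1dn array 2 (-0.82, adjusted p = 0.055) or IRE1dn array 3 (-0.69, 0.056), and the part of RNA quality here too was not tested.

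COPZ1, a zeta subunit of the adaptor-like part of the coat, had 385, 383 and 457 units in IRE1dn cells, against 656, 606 and 711 in ctrl cells. The spread within each group was far smaller than the gap between them. The log2 change was -0.69 (SE 0.15; limma adjusted p = 0.0082), with ctrl 1.61-fold higher. COPZ2, the second zeta form, had 147, 107 and 95.4 units in IRE1dn cells, against 240, 128 and 238 in ctrl cells. Ctrl array 2 lay between the IRE1dn arrays, and the change of -0.76 did not pass (adjusted p = 0.057); without ctrl array 2 it was -1.05 and passed (0.010).

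COPB1, the beta subunit, had 804, 788 and 894 units in IRE1dn cells, against 1261, 1193 and 971 in ctrl cells. The groups did not overlap, but IRE1dn array 3 and ctrl array 3 were close. Both of its probe sets fell in a fit over all probe sets (-0.45 and -0.53; limma adjusted p of 0.047 and 0.038). The gene's own call (-0.45, SE 0.15; adjusted p = 0.042) ended when any single array except ctrl array 3 was left out, with changes of -0.51 to -0.38 and adjusted p of 0.060 to 0.16.

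ARCN1, the delta subunit, had 171, 185 and 168 units in IRE1dn cells, against 332, 246 and 205 in ctrl cells. The groups did not overlap, and the change of -0.55 missed the threshold (SE 0.20; limma adjusted p = 0.060), which it passed without ctrl array 3 (-0.71; 0.017), whereas without ctrl array 1 it was -0.36 (0.12). COPA (alpha) and COPB2 (beta prime), which carry the UPRE letters as COPB1 does, did not pass: COPA had 422, 415 and 500 units in IRE1dn cells, against 386, 392 and 348 in ctrl cells (0.24; 95% interval -0.10 to 0.59), and COPB2 changed by -0.05 (-0.45 to 0.35). Within 1 coat, therefore, the measured subunits ranged from -0.87 to 0.24, and the differences between subunits were not tested.

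**Figure D2:**
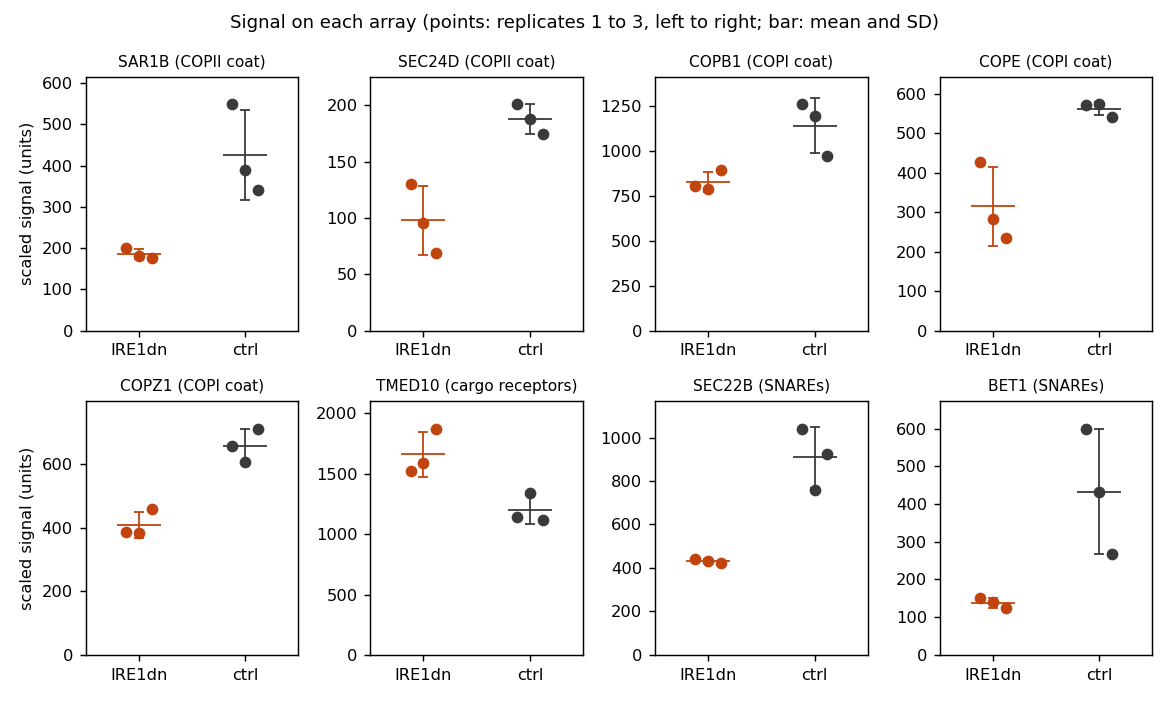
Scaled signal (y axis, from 0) on each of the 3 IRE1dn and 3 ctrl arrays for the 8 genes past limma's adjusted p of 0.05; the bar is the mean and SD. In 7 panels every IRE1dn point lies below every ctrl point, and for TMED10 every IRE1dn point (1523 to 1874) lies above the ctrl points (1121 to 1342).

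Of 7 measured cargo receptors, 1 rose and 0 fell in limma (14.3% called, against 34.4% of all genes), at a median log2 change of -0.20. With unadjusted p under 0.05, 2 rose and 1 fell, against 1720 and 1584 of the 7178 genes tested. TMED10, a p24 receptor that enters both coats, had 1523, 1589 and 1874 units in IRE1dn cells, against 1145, 1342 and 1121 in ctrl cells. The groups did not overlap, and the difference was 0.46 on the log2 scale (SE 0.14; limma adjusted p = 0.033). Its other probe set was higher by 0.19 only and did not pass (adjusted p = 0.35). The call ended without IRE1dn array 2 (0.49, adjusted p = 0.094) or 3 (0.38, 0.093) and without ctrl array 1 (0.43, 0.070) or 3 (0.42, 0.077).

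KDELR3, a receptor that returns ER proteins bearing a KDEL tail, had 683, 784 and 859 units in IRE1dn cells, against 659, 312 and 599 in ctrl cells. The groups did not overlap, although IRE1dn array 1 and ctrl array 1 nearly met. The change of 0.63 did not pass (limma adjusted p = 0.088); it passed without ctrl array 1 (0.83; 0.045) and was 0.30 without ctrl array 2 (0.22), and its 3 probe sets ranged from -0.25 to 0.63. KDELR1 changed by -0.20 in value (95% interval -0.61 to 0.22).

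LMAN2, a lectin of the early secretory pathway, had 181, 138 and 112 units in IRE1dn cells, against 198, 181 and 227 in ctrl cells. IRE1dn array 1 equalled ctrl array 2 to within 1 unit, and the change of -0.51 did not pass (limma adjusted p = 0.086); it passed without IRE1dn array 1 (-0.69; 0.049). LMAN1, the lectin that carries clotting factors out of the ER, varied widely among the ctrl arrays (83.1, 115 and 74.0 units in IRE1dn cells, against 63.6, 108 and 240 in ctrl cells), and its change of -0.40 had a 95% interval of -1.31 to 0.51. That change was 0.10 without ctrl array 3 and -0.84 without ctrl array 1, so the direction on this probe set rests on 1 array. A second LMAN1 probe set had 58.2, 79.7 and 48.3 units in IRE1dn cells, against 70.7, 77.8 and 136 in ctrl cells. It was also lower in value and did not pass (-0.56, limma adjusted p = 0.16 over all probe sets). TMED2 was lower in value on all 3 of its probe sets (-0.96 to -0.23), of which none passed in limma. IRE1dn array 3, the one with the raised ACTB ratio, was the lowest on all 3. The probe set with the largest fall had 431, 342 and 128 units in IRE1dn cells, against 715, 488 and 407 in ctrl cells. The part of RNA quality in these values was not tested. TMED9 was near 0 on both of its probe sets (-0.08 and 0.13).

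The SNAREs held the largest change of the list. Of 6 genes, 2 fell and 0 rose in limma (33.3% called, against 34.4% of all genes). The counts at unadjusted p under 0.05 were the same, against 1584 and 1720 of the 7178 genes tested. BET1, an ER-to-Golgi SNARE, had 150, 139 and 125 units in IRE1dn cells, against 600, 432 and 267 in ctrl cells. The IRE1dn arrays were tightly grouped and the ctrl arrays spread widely, all above them. The log2 change was -1.57 (SE 0.27; limma adjusted p = 0.0025), so ctrl was 2.96-fold higher, and it lay between -1.87 and -1.29 under all 18 alternatives run.

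SEC22B, the R-SNARE that assembles with STX5, GOSR2 and BET1, had 439, 434 and 421 units in IRE1dn cells, against 1041, 759 and 925 in ctrl cells. The IRE1dn arrays were nearly equal and lay far below ctrl. The log2 change was -1.06 (SE 0.16; limma adjusted p = 0.0013), with ctrl 2.08-fold higher. Another 2 probe sets list SEC22B together with its pseudogenes and were not used, and the single-symbol probe set carries the suffix for probes shared by several transcripts, so a pseudogene's share in this signal is not known.

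STX5, the syntaxin of this fusion step, had 34.9, 29.7 and 28.0 units in IRE1dn cells, against 50.4, 44.5 and 36.7 in ctrl cells. The groups did not overlap, and the change of -0.48 did not pass (limma adjusted p = 0.12). GOSR1, a Golgi SNARE, had probe sets in both directions. The one used for the gene changed by -0.20 (95% interval -0.57 to 0.16) and another by -0.22. The remaining one had 94.6, 95.5 and 102 units in IRE1dn cells, against 68.1, 80.5 and 86.3 in ctrl cells, with every IRE1dn array above ctrl (0.32; limma adjusted p = 0.23 over all probe sets). YKT6, a lipid-anchored SNARE, changed by -0.05 in value. A second YKT6 probe set fell in the fit over all probe sets (-0.75; limma adjusted p = 0.039).

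GOSR2, another Golgi SNARE, had 5 probe sets that did not move as one. The one used for the gene had 84.8, 77.9 and 72.0 units in IRE1dn cells, against 54.2, 73.5 and 78.9 in ctrl cells, and the groups overlapped (0.19; limma adjusted p = 0.50). Another had 55.7, 49.3 and 36.9 units in IRE1dn cells, against 104, 77.6 and 91.7 in ctrl cells, with every IRE1dn array below ctrl, and it fell (-0.93; adjusted p = 0.012 over all probe sets). In the remaining 3 the changes were 0.53, 0.51 and -0.52, and none of the 3 passed in limma.

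Of 4 measured genes in the ARF group and 2 measured tethers, 0 rose and 0 fell in limma, against 34.4% of all genes called. The counts were also 0 at unadjusted p under 0.05, against 1720 rising and 1584 falling of the 7178 genes tested. With so few genes, counts of 0 say little about these groups. ARF4, a GTPase of the early Golgi, had 1731, 1772 and 2031 units in IRE1dn cells, against 1700, 1810 and 1521 in ctrl cells (0.14; 95% interval -0.17 to 0.44). The groups overlapped, and both ARF4 probe sets gave the same 0.14. ARF5 changed by 0.15 (-0.25 to 0.55), ARF3 by -0.05 (-0.41 to 0.31) and ARFGAP3, which switches ARFs off, by 0.23 (-0.20 to 0.66). ARF3 was lower in value on all 3 of its probe sets, and 1 of them fell (61.8 ± 12.4 units in IRE1dn and 102 ± 17.5 in ctrl, SD, n = 3 each; -0.71, limma adjusted p = 0.036 over all probe sets). The cis-Golgi proteins GOLGA2 and GORASP2 changed by -0.08 (-0.58 to 0.41) and -0.15 (-0.48 to 0.18).

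Several genes were read by more than 1 probe set. Of the 35, 21 had several, and 18 had several above the filter level, of which 12 kept 1 direction in value and 6 did not. The share of probe sets called over the whole array was 31.7% of 10824. None of the 35 genes had probe sets called in opposite directions, but only COPB1 had more than 1 called probe set, so this says little about agreement. The calls of SAR1B, COPZ1, SEC22B and BET1 rest on a single probe set each. SEC24D and COPE each had only 1 probe set above the filter level, the second of COPE having means of 0.598 units in IRE1dn and 3.50 in ctrl.

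**Figure D3:**
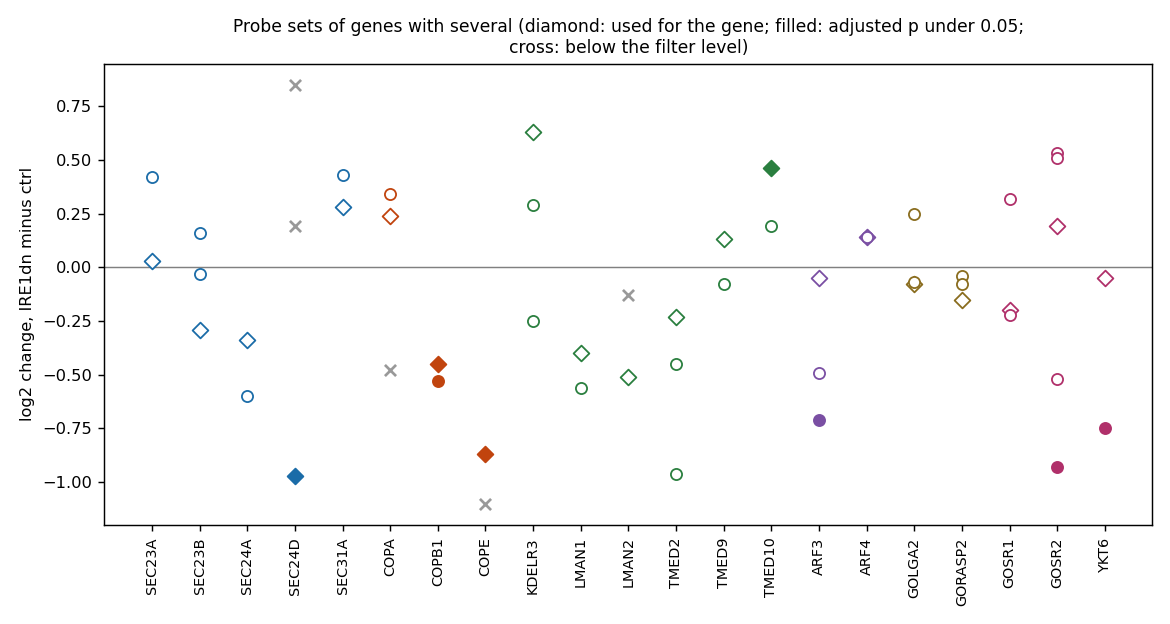
Log2 change (IRE1dn minus ctrl, y axis) of every probe set of the 21 genes with several; diamonds are the probe sets used for the gene, filled symbols passed limma's adjusted p of 0.05 over all probe sets, and crosses lie below the filter level. GOSR2 spans -0.93 to 0.53, while both COPB1 symbols are filled and close together.

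SAR1B, COPZ1, SEC22B and BET1 were lower in IRE1dn cells and past the threshold under all 18 alternatives run. COPZ1 passed only narrowly without IRE1dn array 2 (-0.64, limma adjusted p = 0.0499). The promoter windows of all of these genes are shown whole because their calls held under every alternative. None holds the UPRE, and the capitals mark CCAAT boxes and CCACG sites on either strand. SAR1B has 1 of each, SEC22B only a CCAAT box, and BET1 and COPZ1 several such sites, CCAAT boxes making up most of those in COPZ1:
SAR1B, chr5:134632779-134633078, minus strand: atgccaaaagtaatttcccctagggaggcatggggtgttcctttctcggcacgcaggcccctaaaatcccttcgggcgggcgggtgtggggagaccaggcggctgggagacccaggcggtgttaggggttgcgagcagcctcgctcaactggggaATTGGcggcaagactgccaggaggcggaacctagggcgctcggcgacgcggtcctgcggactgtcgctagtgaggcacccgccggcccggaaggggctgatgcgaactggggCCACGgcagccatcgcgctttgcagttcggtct
SEC22B, chr1:120176471-120176770, minus strand: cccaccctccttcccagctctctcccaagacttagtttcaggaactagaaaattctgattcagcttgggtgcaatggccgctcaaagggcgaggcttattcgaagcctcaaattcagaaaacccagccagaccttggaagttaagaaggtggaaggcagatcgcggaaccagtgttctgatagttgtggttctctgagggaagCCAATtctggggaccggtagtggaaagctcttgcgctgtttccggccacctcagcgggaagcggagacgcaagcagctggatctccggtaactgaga
BET1, chr7:94004306-94004605, minus strand: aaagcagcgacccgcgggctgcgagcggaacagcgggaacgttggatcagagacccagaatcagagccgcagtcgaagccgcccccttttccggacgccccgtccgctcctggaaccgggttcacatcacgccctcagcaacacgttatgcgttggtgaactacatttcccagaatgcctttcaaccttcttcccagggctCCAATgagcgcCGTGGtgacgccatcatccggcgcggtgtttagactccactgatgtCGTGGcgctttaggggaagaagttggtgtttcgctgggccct
COPZ1, chr12:54324881-54325180, plus strand: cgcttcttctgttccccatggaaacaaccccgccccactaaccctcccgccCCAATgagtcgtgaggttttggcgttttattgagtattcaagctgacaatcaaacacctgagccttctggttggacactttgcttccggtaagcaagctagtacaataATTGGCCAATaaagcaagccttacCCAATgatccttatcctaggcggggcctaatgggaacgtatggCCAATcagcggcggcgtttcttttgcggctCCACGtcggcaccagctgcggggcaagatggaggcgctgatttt

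A further 82 genes of ER-to-Golgi transport and its control, outside the 39, were read from a list; 65 were tested, 4 rose and 12 fell in limma (24.6% called, against 34.4% of all genes). Their median change was -0.15 on the log2 scale. Around COPII, 1 of 10 rose and 2 fell: the exit site scaffold SEC16A rose (327 ± 33.7 units in IRE1dn and 167 ± 42.8 in ctrl, SD, n = 3 each; 0.99, SE 0.21; limma adjusted p = 0.0061), while the p24 protein TMED5 fell by 0.87 and the calcium-binding PDCD6 fell by 0.68. SAR1A, the other SAR1 form, did not pass (371 ± 66.1 units in IRE1dn and 322 ± 46.0 in ctrl; 0.19, adjusted p = 0.46), and its difference from SAR1B was not tested. Around COPI and ARF, 1 of 8 rose and 1 fell (25.0% called, against 34.4% of all genes). The ARF exchange factor GBF1 rose by 0.83 and the ARF-like GTPase ARL1 fell by 0.95. COPG1, the gamma subunit missing from the 39, changed by -0.87 without passing (limma adjusted p = 0.075).

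Among 10 other cargo receptors 1 gene, CNIH4, fell by 0.59 and 0 rose in limma (10.0% fell, against 16.5% of all genes). With unadjusted p under 0.05, 3 fell and 0 rose, against 1584 and 1720 of the 7178 genes tested. The p24 protein TMED5 was counted around COPII and not here. Of 19 tethers, golgins and RAB GTPases, 0 rose and 4 fell in limma (21.1% called, all lower, against 34.4% of all genes called and 16.5% lower). With unadjusted p under 0.05, 1 rose and 5 fell, against 1720 and 1584 of the 7178 genes tested. The golgin BLZF1 fell by 1.16 although its groups overlapped (limma adjusted p = 0.041), while the tethering factor RINT1 fell by 1.16 (0.0047) and the TRAPP subunit TRAPPC3 fell by 0.94 (0.0042). Of 12 other SNAREs and recycling factors, 1 rose and 2 fell in limma, or 3 of 12 against 34.4% of all genes. STX6 rose by 0.60, barely past the threshold (limma adjusted p = 0.0497). USE1 and BNIP1, SNAREs of the return route to the ER, fell by 0.90 (0.018) and 0.87 (0.041), although the groups of BNIP1 overlapped. Of 6 tested regulators, 1 rose and 2 fell, or 3 of 6 against 34.4% of all genes. The ER-anchored factor CREB3 fell (152 ± 17.4 units in IRE1dn and 390 ± 74.6 in ctrl; -1.34, SE 0.19; limma adjusted p = 0.0010). CREB3L1, a related ER-anchored factor, rose (208 ± 39.3 units in IRE1dn and 111 ± 30.2 in ctrl; 0.91, SE 0.24; limma adjusted p = 0.018). XBP1 had 113, 125 and 130 units in IRE1dn cells, against 265, 229 and 203 in ctrl cells, with every IRE1dn array below ctrl (-0.90, SE 0.18; limma adjusted p = 0.0045). Spliced and unspliced XBP1 transcripts were not told apart here.

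**Figure D4:**
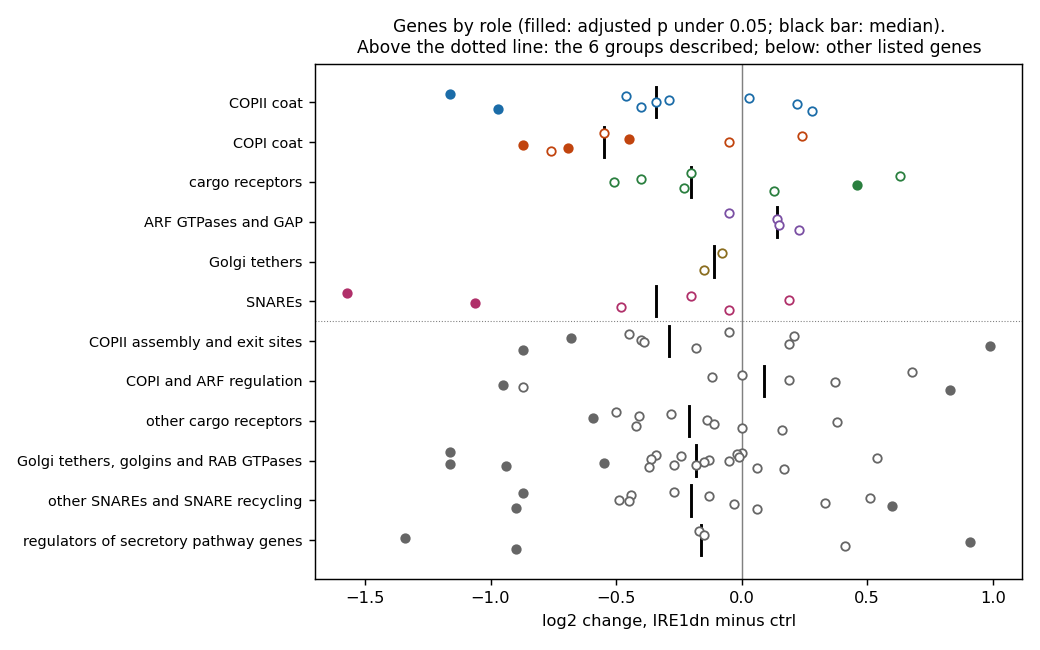
Log2 change (IRE1dn minus ctrl, x axis) of each tested gene by role; filled points passed limma's adjusted p of 0.05, and the black bar is the median. Medians of the 6 groups above the dotted line run from -0.55 (COPI coat) to 0.14 (ARF GTPases and GAP), and those of the other lists from -0.29 to 0.09.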

How the data were processed

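Total RNA of 6 samples, 3 IRE1dn and 3 ctrl, was measured on 1 Affymetrix array each. The deposited values are linear signal intensities for 22277 probe sets, made with GCOS 1.2 per the submitters' processing notes; how signals were summarised and background removed is not given in the sources used here. The intensities were already scaled, with a 2% trimmed mean of 100 per array, so a change shared by all transcripts would not be seen. The number of arrays, 3 per group, limits the precision.

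Signals were analysed as log2(signal + 1.75), the pseudocount being the 20th percentile of all values, which makes changes of dim genes smaller. Probe sets with 1 symbol in the platform annotation (19064, of which 19052 matched GRCh38.p14 RefSeq by identifier) named genes; 1043 named several and were not used. The probe set with the highest mean represented each of 11963 genes, and 7178 genes above the 40th percentile (13.0 units) were tested with limma 3.58.1 in R 4.3.3 (intensity trend, two-sided, Benjamini-Hochberg over all 7178, threshold 0.05), after a test on simulated data. A second fit covered 10824 probe sets above the same level. Log2 changes are IRE1dn minus ctrl, with standard errors (SE).

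The 39 genes, the further lists and the motifs were chosen with earlier results of these data known. Genes past the threshold, and those with disagreeing probe sets of which 1 passed, are given array by array; up to 3 changed genes of each further list are named. Array values of other genes, and SAR1A and COPG1, were added after their values were seen. Alternatives changed the pseudocount, filter, scaling, probe set choice and variance model, used the replicate number as a block, and left out each array.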

Additional observations from a re-analysis of the deposited data

How the results depend on the processing

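The number of trafficking genes that fell was 6 to 10 under the 12 alternatives that kept all arrays, against 7, and 4 to 8 with 1 array left out, the 4 without IRE1dn array 3. With arrays set to equal medians 10 fell, adding ARCN1, COPZ2 and LMAN2. The single rise, TMED10, was the least stable count. In limma 0 genes rose with no filter, with arrays set to equal medians, with the mean of all probe sets, with plain probe sets where a gene has one, with no intensity trend and with the replicate block, while 2 rose with array weights (TMED10 and KDELR3); with 1 array left out 0 or 1 rose. At unadjusted p under 0.05, 1 or 2 rose in each of those settings with 0. SEC24D changed by 0.02 with the mean of all probe sets, which includes its 2 dim probe sets. Over all genes, 1441 to 2663 passed with 1 array left out, against 2468; the lowest were 1441 without IRE1dn array 2 and 1501 without IRE1dn array 3.

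Over the tested genes, same-numbered arrays had deviations from their group means that correlated at -0.103, 0.061 and 0.025, none over 0.1, so the numbers are not taken to pair samples. The mean deviation of the trafficking genes did run alike by number: 0.07 in IRE1dn and 0.05 in ctrl for number 1, -0.01 and -0.00 for number 2, and -0.06 and -0.05 for number 3. With the replicate block 7 trafficking genes fell, COPB1 (adjusted p = 0.074) and TMED10 (0.058) lost their calls and COPZ2 gained one (0.040). Of 629 values of the 35 genes under the alternatives, 596 kept their direction and side of the threshold or stayed uncalled. Limits: 3 arrays per group, scaled signals without detection calls, and 1 probe set for 4 of the 8 changed genes. For SEC24D and COPE only 1 probe set lay above the filter level.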
